A study of Homo sapiens with 11 samples.

Results

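The aminoacyl-tRNA synthetases of IMR32 cells were followed across 11 expression arrays of a time course with a hairpin against MYCN. Members were chosen by name: 37 genes, of which 19 encode cytosolic synthetases, 16 encode mitochondrial synthetases and 2 encode scaffold proteins (AIMP1 and AIMP2). Of these 37 genes, 33 had at least 1 probe set annotated to them alone, out of 19775 genes on the array. They were read by 70 of the 54675 probe sets. The 33 comprised 17 cytosolic synthetases, 15 mitochondrial synthetases and AIMP1, and all 33 passed the filter on dim genes. MARS1, QARS1 and TARS2 were read only by probe sets also annotated to a microRNA gene and were not analysed here, and AIMP2 was not analysed here either.

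IMR32 is a human neuroblastoma cell line with amplified MYCN, a transcription factor of the MYC family. Cells received lentivirus with a MYCN hairpin (TRCN0000020696, written shMYCN#3 in the titles) or with the control hairpin SHC002, or no virus. At 24, 48 and 72 h, 2 arrays carry the label shMYCN (lettered A and B) and 1 the control virus, and 2 no virus arrays were taken at 0 h. Whether the 2 arrays of a group are separate cultures is not in the labels, and p-values then measure only the spread between arrays, which may be technical. Each control virus array was assumed to vary like the groups with 2. All arrays come from 1 cell line, and 1 hairpin per target was used.

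An aminoacyl-tRNA synthetase joins an amino acid to its tRNA, the step that fixes which amino acid a codon adds to a protein. Human cells carry separate nuclear genes for most cytosolic and mitochondrial enzymes, named with a final 1 and 2. A few enzymes, among them those encoded by KARS1 and GARS1, serve both compartments. Several cytosolic synthetases assemble with AIMP1 and AIMP2 into the multisynthetase complex, and others work free in the cytosol. Many cytosolic synthetase genes are known targets of ATF4, the transcription factor of the amino acid response, and MYC proteins are known for activating genes of protein synthesis through the E-box CACGTG.

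The MYCN transcript itself was not called lower on the arrays labelled shMYCN. The brightest of its 10 probe sets had signals of 4567 to 5624 on the 6 arrays labelled shMYCN, against 5055 to 5390 on the 3 control virus arrays, with a mean log2 fold change of -0.02 ± 0.08 (SE; limma adjusted p = 0.866). None of the 10 probe sets was called lower in limma, and 1 was lower at an unadjusted p under 0.05, so every direction below rests on the labels. Median signals of the arrays were 14.9 to 16.7. The neuroblastoma markers PHOX2A (966.5 to 1390), GATA3 (2873 to 3499), ISL1 and CHGA were bright on all arrays, while TH was below the filter. SOX10, S100B, PTPRC, CD3E and CD14 were below the filter, whereas COL1A1 (292 to 659) and CD79A (16.8 to 28.8) were above it, with the fibroblast genes COL1A2, DCN and LUM below it.

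Averaged over the 3 times, 12 of 33 members were lower and 1 was higher on arrays labelled shMYCN than on control virus arrays (limma, Benjamini-Hochberg adjusted p under 0.05 over 11865 genes). Over all genes tested, 15.8 percent were called lower and 22.2 percent were called higher. Among the 17 cytosolic synthetases, IARS1, YARS1, FARSA, KARS1, AARS1, GARS1, NARS1 and FARSB fell and HARS1 rose. Among the 15 mitochondrial synthetases, RARS2, EARS2, YARS2 and FARS2 fell and none was called higher. The median log2 fold change was -0.20 for cytosolic and -0.08 for mitochondrial synthetases, beside 0.04 over all genes tested. A negative value was found for 28 of 33 members, beside 5286 of all 11865 genes. Without the single control virus array of 72 h, the average covers 24 and 48 h alone, and IARS1 (-0.53), YARS1 (-0.45) and RARS2 (-1.04) remained as the 3 called members. Calls dropped over all 11865 genes as well, to 776 lower and 1162 higher, against 1871 and 2629 with all arrays. On this bulk measurement, fewer cells of a kind and less RNA per cell cannot be told apart, and the scaling of every array to the same mean hides a change in total RNA.

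**Figure D1:**
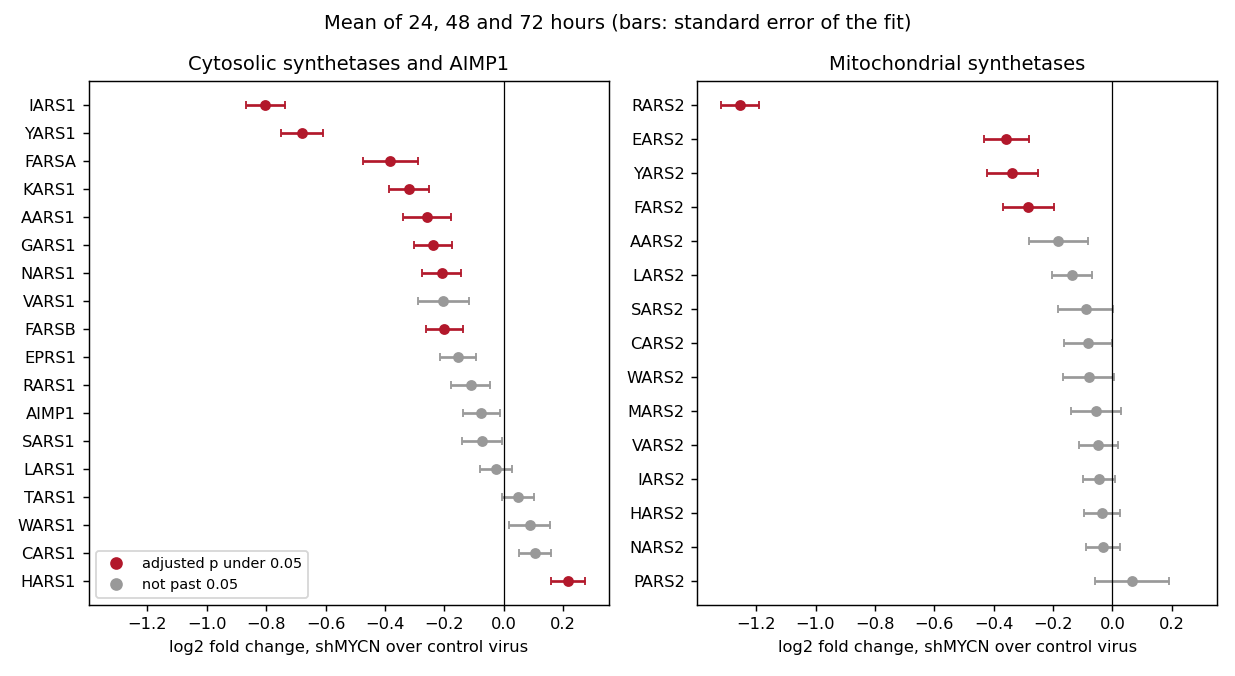
Log2 fold change of each member on the log2(signal + 16) scale, shMYCN over control virus, averaged over 24, 48 and 72 h, with cytosolic synthetases and AIMP1 at the left and mitochondrial synthetases at the right. Points are estimates, bars are standard errors of the fit, and red marks an adjusted p under 0.05. RARS2 at -1.25, IARS1 at -0.80 and YARS1 at -0.68 lie apart from the other members.

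RARS2, the mitochondrial arginyl-tRNA synthetase, fell furthest of the 33. Its signals on arrays labelled shMYCN were 254 and 275 at 24 h, 120.5 and 117.5 at 48 h, and 110.4 and 105 at 72 h. They were 394, 375 and 379.8 on the control virus arrays of the same hours and 369 and 382 without virus. All 6 arrays labelled shMYCN lay below all 5 others, and the control virus arrays were close to those without virus. The mean log2 fold change was -1.25 ± 0.06 (SE), a 2.39-fold lower value on the log2(signal + 16) scale (limma adjusted p = 1.69e-07). The differences were -0.55 ± 0.11 at 24 h (adjusted p = 0.0501), -1.54 ± 0.11 at 48 h and -1.68 ± 0.11 at 72 h. The other bright RARS2 probe set gave the same mean value of -1.25, with signals of 71.0 and 58.7 at 72 h against 224 on the control virus array of that hour, and a dimmer one gave -0.89. With all 6 of its probe sets averaged, 3 of them dim, the RARS2 value was -0.61 and still passed the test.

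IARS1, the cytosolic isoleucyl-tRNA synthetase and a member of the multisynthetase complex, was the most changed cytosolic enzyme. Its only probe set read 2080 and 1912 at 24 h, 1429.8 and 1251 at 48 h, and 985 and 936 at 72 h on arrays labelled shMYCN. The control virus arrays read 2308, 2437 and 2456, and the no virus arrays 2545 and 2367. The 6 arrays labelled shMYCN lay below the other 5, and the gap was wider at each later time. Averaged over the times, IARS1 fell by 0.80 ± 0.07 on the log2 scale (adjusted p = 4.59e-06 in limma), and the value at 72 h was -1.34 ± 0.11.

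Because this promoter is the only one of the members' promoters searched that held both motifs, its matching windows are shown. RefSeq sequences (GRCh38.p14) from 250 bases before to 50 after the first listed start were available for 32 of the 37 members; AARS2, LARS1, VARS1, VARS2 and YARS1 had no entry. The windows below read 5′ to 3′ on the gene's strand, with the motif in capitals. The E-box window lies at chr9:92293858-92293903 (minus strand) and that of the ATF4-type motif TGATGNAA, found on the opposite strand, at chr9:92293698-92293730 (minus strand).

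IARS1 E-box: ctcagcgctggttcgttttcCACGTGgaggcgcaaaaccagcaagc

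IARS1 ATF4-type motif: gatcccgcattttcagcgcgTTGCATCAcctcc

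YARS1, the cytosolic tyrosyl-tRNA synthetase, followed the same order of arrays. Its signals on arrays labelled shMYCN were 891 and 1018 at 24 h, 653 and 781 at 48 h, and 503 and 523 at 72 h. The control virus arrays gave 1206.5, 1059 and 1154, and the no virus arrays 1084 and 1151. The highest array labelled shMYCN was below the lowest of the other 5. YARS1 had a mean log2 fold change of -0.68 ± 0.07 (limma adjusted p = 2.76e-05) and the 72 h value was -1.15 ± 0.12. The other YARS1 probe set, with signals of 26.8 to 63.7, gave 0.04, and averaging both probe sets gave -0.32 with the call kept.

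KARS1, which encodes the lysyl-tRNA synthetase of both cytosol and mitochondria, differed mainly at the last time on its brightest probe set. Arrays labelled shMYCN read 2453 and 2219 at 24 h, 2150.5 and 2063 at 48 h, and 1644 and 1437 at 72 h. The control virus arrays read 2479, 2424 and 2446, and the no virus arrays 2507 and 2314. At 24 h the groups overlapped, and at 48 and 72 h the arrays labelled shMYCN were below all 5 others. For KARS1 the mean log2 fold change was -0.32 ± 0.07 (limma adjusted p = 0.0033) and the 72 h value -0.66 ± 0.12. The other KARS1 probe set was also called, at -0.45, and was clearly lower by 48 h. On arrays labelled shMYCN it read 809 and 857 at 48 h and 682 and 658 at 72 h. The lowest control virus or no virus array read 1147 on that probe set.

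FARSA and FARSB encode the alpha and beta subunits of cytosolic phenylalanyl-tRNA synthetase. FARSA gave 382 and 441 at 24 h, 274 and 378 at 48 h, and 277 and 303 at 72 h on arrays labelled shMYCN, against 435, 468 and 431 on control virus arrays and 449 and 468 without virus. Array B at 24 h lay among the other 5 and the remaining arrays labelled shMYCN lay below them. FARSA had a mean log2 fold change of -0.38 ± 0.09 (limma adjusted p = 0.0072), and its other probe set gave -0.35 and was called. The averaged FARSA call was lost without the control virus array of 48 or of 72 h. FARSB fell less, with a mean value of -0.20 ± 0.06 (adjusted p = 0.0265 in limma), and had signals at 72 h of 624 and 546 on arrays labelled shMYCN against 780.0 on the control virus array. Its other probe sets, with mean signals of 47.8 and 48.3, gave 0.03 and 0.10, and averaging all FARSB probe sets gave -0.02 (limma adjusted p = 0.773).

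The remaining cytosolic calls were smaller. AARS1, for alanine, fell by 0.26 ± 0.08 on the log2 scale, GARS1, for glycine in both compartments, fell by 0.24 ± 0.06, and NARS1, for asparagine, fell by 0.21 ± 0.07, with limma adjusted p-values of 0.0267, 0.0118 and 0.0263. At 72 h GARS1 read 1410.4 and 1320.5 on arrays labelled shMYCN, against 1759.9 on the control virus array. AARS1 read 362 and 381 against 494, and NARS1 read 1772 and 1558.5 against 2134. These 3 genes were thus below their 72 h control on both arrays. Over 22 alternatives the call was lost in 8 for AARS1, in 7 for NARS1 and in 1 for GARS1, mostly where an array was left out.

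HARS1, the cytosolic histidyl-tRNA synthetase, was the one member that rose. Its signals were 614 and 641 at 24 h, 594 and 628.5 at 48 h, and 633 and 609 at 72 h on arrays labelled shMYCN. They were 558, 504 and 532 on the control virus arrays and 599 and 551 without virus. All 6 arrays labelled shMYCN exceeded the 3 control virus arrays, but 1 no virus array lay within their range. HARS1 had a mean log2 fold change of 0.22 ± 0.06 (limma adjusted p = 0.0117), and scaling each array by its median gave 0.17 (adjusted p = 0.0595), which ended the call, as did leaving out the control virus array of 48 or of 72 h.

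HARS2, the mitochondrial histidyl-tRNA synthetase, is the head-to-head neighbour of HARS1. Its signals were 272 and 277 at 24 h, 254 and 276 at 48 h, and 236 and 235 at 72 h on arrays labelled shMYCN, against 275, 255 and 264 on control virus arrays and 259 and 270.0 without virus. Both arrays of 72 h lay below the other 5, while at 24 and 48 h the groups overlapped. The mean log2 fold change of HARS2 was -0.03 ± 0.06 (limma adjusted p = 0.685) and the 72 h value was -0.15 ± 0.11 (adjusted p = 0.297). RefSeq places 84 bases between the first listed starts of HARS1 and HARS2, at chr5:140691371-140691454 of GRCh38.p14, shown on the plus strand, the strand of HARS2, because both genes begin at its ends.

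HARS1 and HARS2 interval: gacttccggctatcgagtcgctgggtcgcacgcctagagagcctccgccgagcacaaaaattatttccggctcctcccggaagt

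The interval held neither motif, which says only that these letters are not in this stretch. The pair shared this interval. HARS1 was called higher, at 0.22, and HARS2, at -0.03, was not called. The HARS2 value ran from -0.08 to 0.02 over the alternatives, so its sign was not settled. The difference between the pair was not tested.

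**Figure D2:**
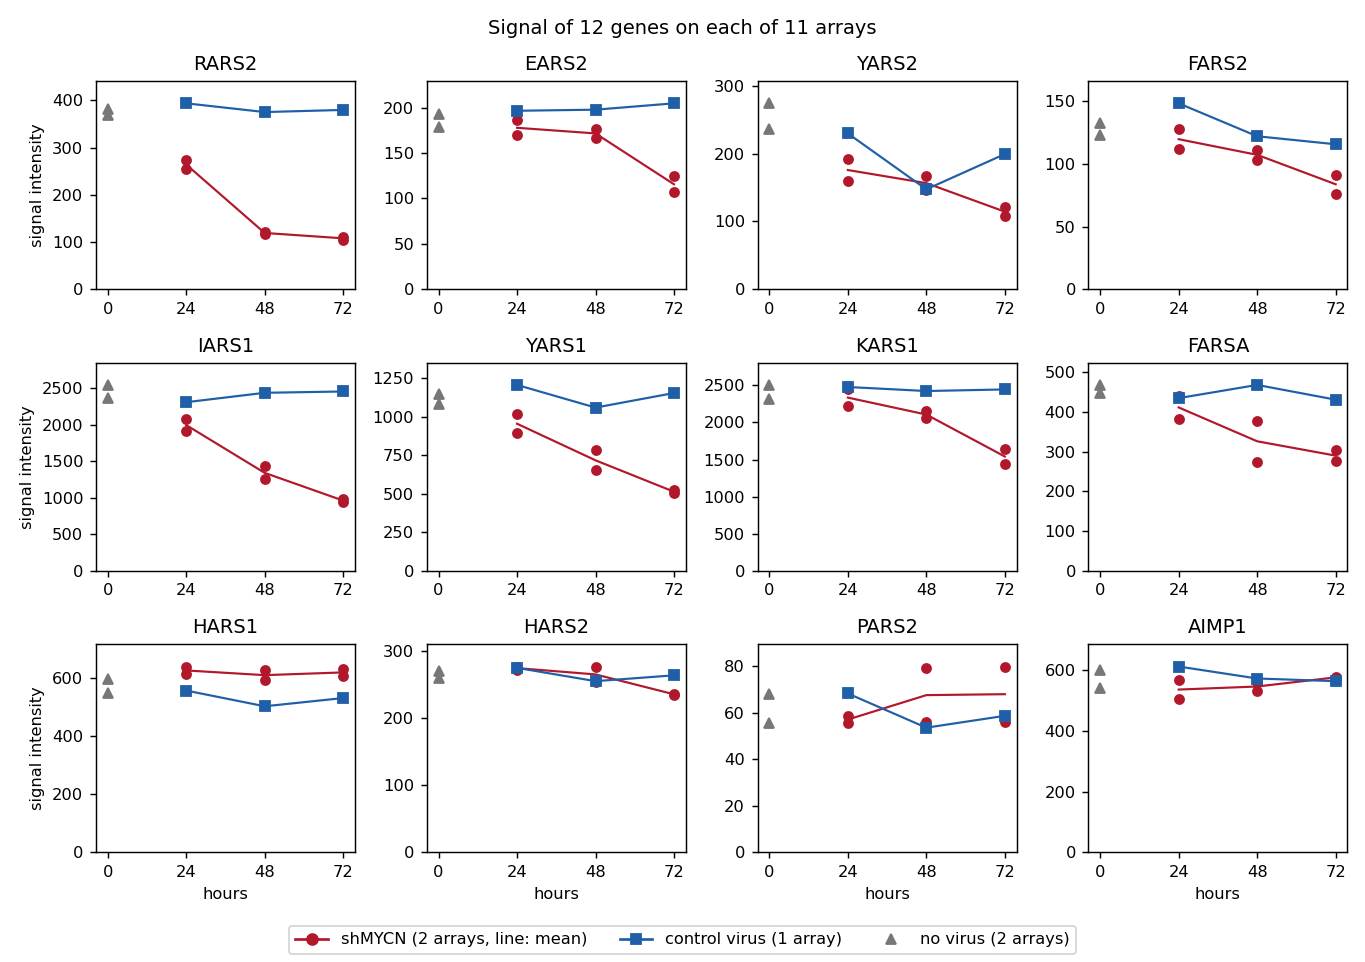
Deposited signal intensity (linear axis from 0) of 12 members against hours. Red points are the 2 arrays labelled shMYCN with a line through their mean, blue squares are single control virus arrays and grey triangles are the 2 no virus arrays. RARS2 falls to 120.5 and 117.5 by 48 h in shMYCN, against 375 in control virus, whereas AIMP1 and PARS2 overlap between groups.

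EARS2, the mitochondrial glutamyl-tRNA synthetase, fell mainly at 72 h on its brightest probe set. Arrays labelled shMYCN read 169 and 186 at 24 h, 166 and 176.5 at 48 h, and 124 and 107 at 72 h. The control virus arrays read 196, 198 and 205, and the no virus arrays 193 and 179. All 6 arrays labelled shMYCN were below the 3 control virus arrays, and array B at 24 h was above the lower no virus array. Its mean log2 fold change was -0.36 ± 0.08 (limma adjusted p = 0.00315) and the 72 h value was -0.75 ± 0.13. Of the other EARS2 probe sets, 2 were called at -0.67 and -0.69.

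YARS2, the mitochondrial tyrosyl-tRNA synthetase, read 160.2 and 192 at 24 h, 166.5 and 147 at 48 h, and 107.5 and 121 at 72 h on arrays labelled shMYCN. It read 230.1, 147.5 and 199.6 on control virus arrays, and 275 and 237 without virus. The 48 h control virus array lay at the level of the 48 h arrays labelled shMYCN, and both arrays of 72 h were below all 5 others. YARS2 had a mean log2 fold change of -0.34 ± 0.09 (limma adjusted p = 0.00927) and the 72 h value -0.73 ± 0.15. A model with separate effects of virus and hour gave the same YARS2 value with an adjusted p of 0.0636, which ended the call.

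FARS2 encodes the whole mitochondrial phenylalanyl-tRNA synthetase, a single-chain enzyme. Its signals were 112 and 128 at 24 h, 103 and 111.5 at 48 h, and 76.3 and 91.2 at 72 h on arrays labelled shMYCN. They were 148, 122 and 116 on control virus arrays and 123 and 132 without virus. Array B at 24 h overlapped the other 5 and the rest were below them. The mean log2 fold change was -0.28 ± 0.08 (limma adjusted p = 0.0213), and the 72 h value was -0.40 ± 0.15 (adjusted p = 0.0528). The averaged FARS2 call was lost without shMYCN array A of 24 h, without shMYCN array A of 72 h, or without the 72 h control virus array.

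The other cytosolic synthetases, 8 in number, did not pass. Their mean log2 fold changes were -0.20 for VARS1 (valine), -0.15 for EPRS1 (glutamate and proline), -0.11 for RARS1 (arginine), -0.07 for SARS1 (serine), -0.03 for LARS1 (leucine), 0.05 for TARS1 (threonine), 0.09 for WARS1 (tryptophan) and 0.11 for CARS1 (cysteine). The smallest limma adjusted p among them was 0.0628, for EPRS1. The probe sets of LARS1 disagreed: the brightest gave -0.03, 1 dimmer probe set gave -0.70 and was called, and another bright one gave 0.24.

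The 11 mitochondrial synthetases that did not pass lay between -0.18 and 0.07. They were AARS2 at -0.18, LARS2 at -0.13, SARS2 at -0.09, CARS2 at -0.08, WARS2 at -0.08, MARS2 at -0.06, VARS2 at -0.05, IARS2 at -0.04, HARS2 at -0.03, NARS2 at -0.03 and PARS2 at 0.07, all as log2 fold changes. The smallest limma adjusted p among them was 0.136, for LARS2. PARS2, the prolyl enzyme and the only mitochondrial member with a positive value, read 55.4 and 58.8 at 24 h, 56.1 and 79.1 at 48 h, and 79.9 and 56.1 at 72 h on arrays labelled shMYCN. It read 68.3, 53.6 and 58.7 on control virus arrays and 68.2 and 55.4 without virus, so the groups overlapped throughout.

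Calls were divided among the synthetases of the multisynthetase complex. Of the 5 tested (of 7 listed), IARS1 and KARS1 fell, and EPRS1, RARS1 and LARS1 did not pass, with a median of -0.15. Of the 12 free cytosolic synthetases, 6 fell and 1 rose, with a median of -0.20. Of all genes tested, 15.8 percent were lower and 22.2 percent higher. AIMP1, the scaffold protein read here, had signals of 569 and 504 at 24 h, 531.5 and 562 at 48 h, and 575 and 579.5 at 72 h on arrays labelled shMYCN. It had 613, 573 and 564.5 on control virus arrays and 543 and 600.1 without virus. The AIMP1 groups overlapped, and its mean log2 fold change was -0.07 ± 0.06 (limma adjusted p = 0.375).

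**Figure D3:**
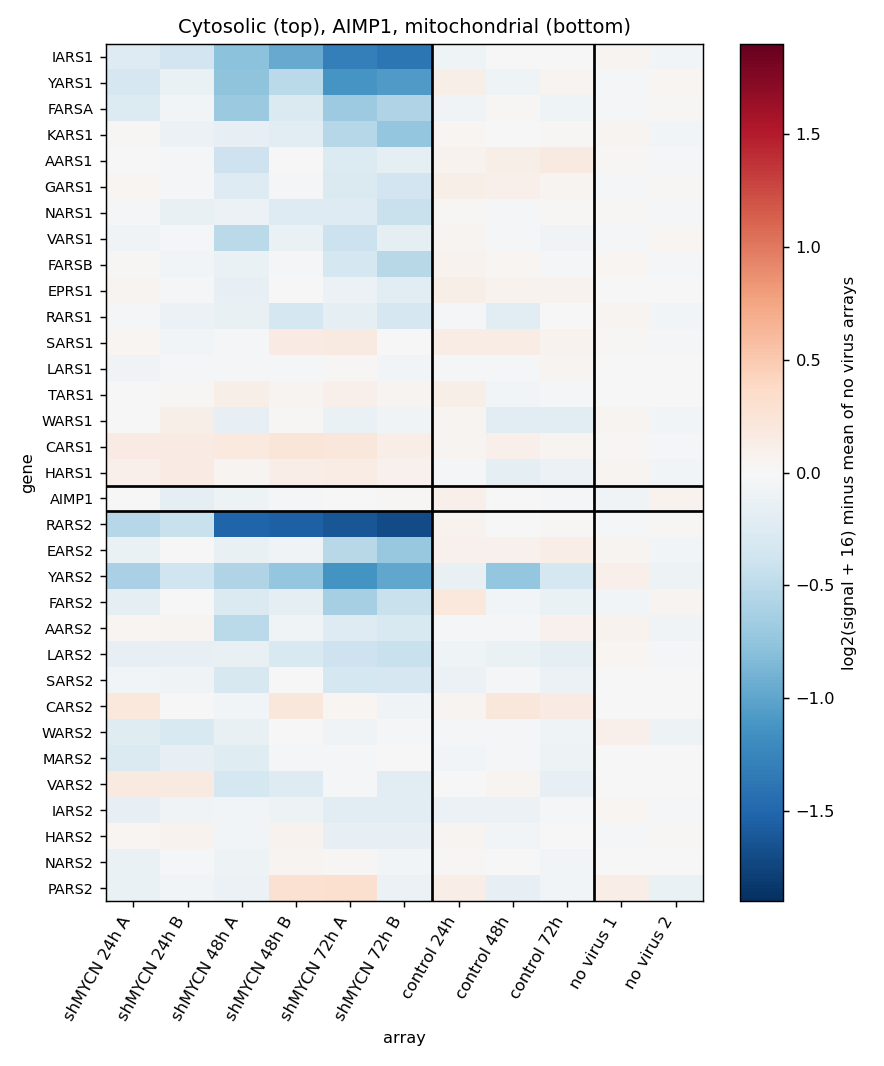
Each row is a member and each column an array, coloured by log2(signal + 16) minus the mean of the 2 no virus arrays. The darkest blue cells are RARS2 at 48 and 72 h, and IARS1, YARS1 and YARS2 are also dark at 72 h, while the control virus columns stay pale apart from YARS2 at 48 h.

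The number of members that passed grew with time. At 24 h limma called 0 of 33, where 0.59 percent of all genes were called lower. At an unadjusted p under 0.05, 3 members were lower (RARS2, YARS1 and YARS2) and 0 higher. At that unadjusted threshold, 540 of all 11865 genes were lower and 830 higher. At 48 h 4 members were lower (RARS2, IARS1, YARS1 and FARSA), where 6.9 percent of all genes were. At 72 h 11 members were lower, where 15.7 percent of all genes were. These were the 8 cytosolic genes that fell in the mean, with RARS2, EARS2 and YARS2. The 72 h call of AARS1 (adjusted p = 0.0477) was lost in 11 of 20 alternatives. The median at 72 h was -0.26 for cytosolic and -0.17 for mitochondrial synthetases, beside 0.04 over all genes tested. Without shMYCN array B of 48 h, 17 members were called at 72 h and 9 at 48 h, and without shMYCN array B of 72 h, 7 were called at 72 h. Of all 11865 genes, 2385 were lower at 72 h without array B of 48 h and 1405 without array B of 72 h, against 1868 with all arrays. For 48 h, the share of all genes in the fit without array B of 48 h is not given here. That member count at 48 h is therefore not a result about the members. Arrays A and B of 48 h were the least alike of the pairs.

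Fitting all 5 control and no virus arrays as 1 group, an alternative chosen after the data were seen, gave 20 members called at 72 h (19 lower and 1 higher) and 12 at 48 h (11 lower and 1 higher). The same fit called 24.1 percent of all genes lower and 29.7 percent higher at 72 h, and 13.2 percent lower and 18.6 percent higher at 48 h. Among the 20 were the same 11, FARS2 at -0.53, LARS2, EPRS1, VARS1, SARS2, RARS1, AARS2 and IARS2 on the lower side, and HARS1 on the higher side.

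The difference at 72 h exceeded that at 24 h for 4 members, by the limma test of the interaction, where 5.82 percent of all genes were called lower. The 72 h difference minus the 24 h difference was -1.13 ± 0.16 for IARS1 (adjusted p = 0.00219), -1.13 ± 0.16 for RARS2 (adjusted p = 0.00199), -0.81 ± 0.17 for YARS1 (adjusted p = 0.015) and -0.58 ± 0.17 for KARS1 (adjusted p = 0.0473). EARS2 gave -0.62 ± 0.18 and missed the threshold (adjusted p = 0.057). Fewer members passed this test without array B of 24 h, and the share of all genes in that fit is not given here.

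Within the arrays labelled shMYCN, which share arrays with the comparisons above, 11 members were lower at 72 h than at 24 h, where 18.3 percent of all genes were. The count fell without array B of 24 h and grew without either array of 48 h. The share of all genes in those fits is not given here, so these changes are not a result about the members. The 11 members were IARS1 (-1.04 ± 0.09), YARS1 (-0.87 ± 0.10), KARS1, FARSA, FARSB and GARS1 among the cytosolic genes, and RARS2 (-1.18 ± 0.09), EARS2, YARS2, FARS2 and VARS2 among the mitochondrial ones. VARS2, for valine, gave -0.29 ± 0.09 (limma adjusted p = 0.0318), but at 72 h it was 0.04 ± 0.11 above the control virus array, whose signal of 207 was the lowest of the 3. Between control virus and no virus, limma called 0 of 33 members (0.0337 percent of all genes were called in either direction). At an unadjusted p under 0.05, 1 member was lower: YARS2, at -0.40 ± 0.11 (limma adjusted p = 0.541). At that unadjusted threshold, 285 of all 11865 genes were lower and 346 higher.

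Array by array, 13 of 33 members had all 6 arrays labelled shMYCN below the control virus array of their hour, as 14.8 percent of all genes did. They were 9 of 17 cytosolic and 4 of 15 mitochondrial synthetases. Both 72 h arrays lay below all 5 control virus and no virus arrays for 19 of 33 members, 10 cytosolic and 9 mitochondrial, as 27.5 percent of all genes did.

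The medians of the cytosolic and mitochondrial classes lay close to each other on each array. For every member, the mean of the 2 no virus arrays was subtracted on the log2 scale, and the median was taken over each class. At 72 h the cytosolic median was -0.24 on array A and -0.21 on array B labelled shMYCN, and the mitochondrial median was -0.20 and -0.22. The 72 h control virus array had 0.02 for cytosolic and -0.05 for mitochondrial synthetases. The SD of a class median between the 2 arrays of a group was 0.050 for cytosolic and 0.038 for mitochondrial synthetases. The cytosolic median minus the mitochondrial median stayed between -0.04 and 0.13 on all 11 arrays, and the widest gap was on array A at 24 h labelled shMYCN. Leaving out the dimmest 60 percent of genes, which removed MARS2, PARS2, SARS2 and WARS2, turned the cytosolic minus mitochondrial value at 72 h to 0.04, against -0.01 with them.

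**Figure D4:**
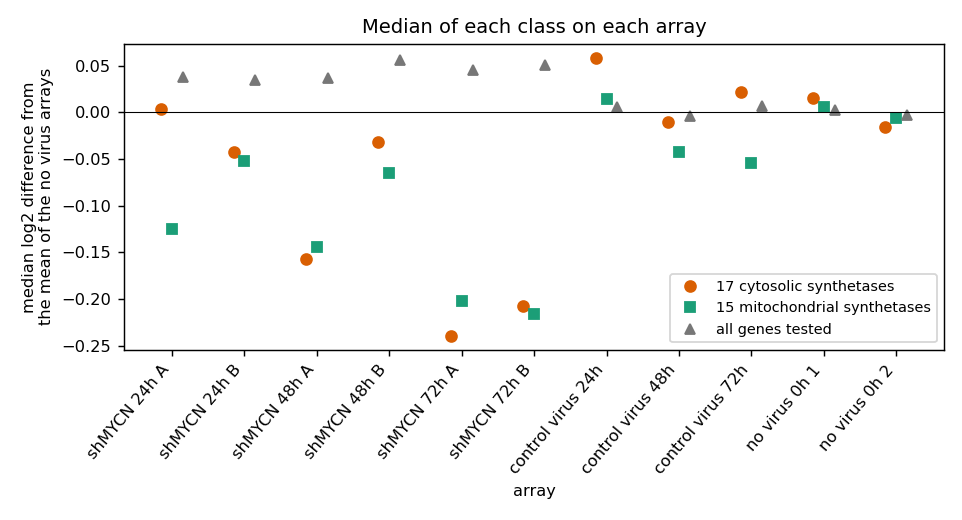
Median over 17 cytosolic synthetases (circles), 15 mitochondrial synthetases (squares) and all genes tested (triangles) of the log2 difference from the mean of the no virus arrays, on each array. Both classes are lowest on the 72 h arrays labelled shMYCN, where all genes stay near 0.05.

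Partners for the same amino acid were set side by side. Of 15 pairs of cytosolic and mitochondrial genes (EPRS1 and FARS2 each enter 2 pairs), the cytosolic gene had the lower mean fold change in 7 and the mitochondrial gene in 8, and 9 pairs lay within 0.2 of each other. These differences were not tested. For isoleucine, IARS1 gave -0.80 and IARS2 -0.04. For arginine the order was the reverse, with RARS1 at -0.11 and RARS2 at -1.25. For tyrosine, YARS1 and YARS2 both fell, by 0.68 and 0.34 on the log2 scale, and for phenylalanine FARSA, FARSB and FARS2 all fell. For proline, valine, tryptophan, leucine, serine and cysteine neither partner passed.

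**Figure D5:**
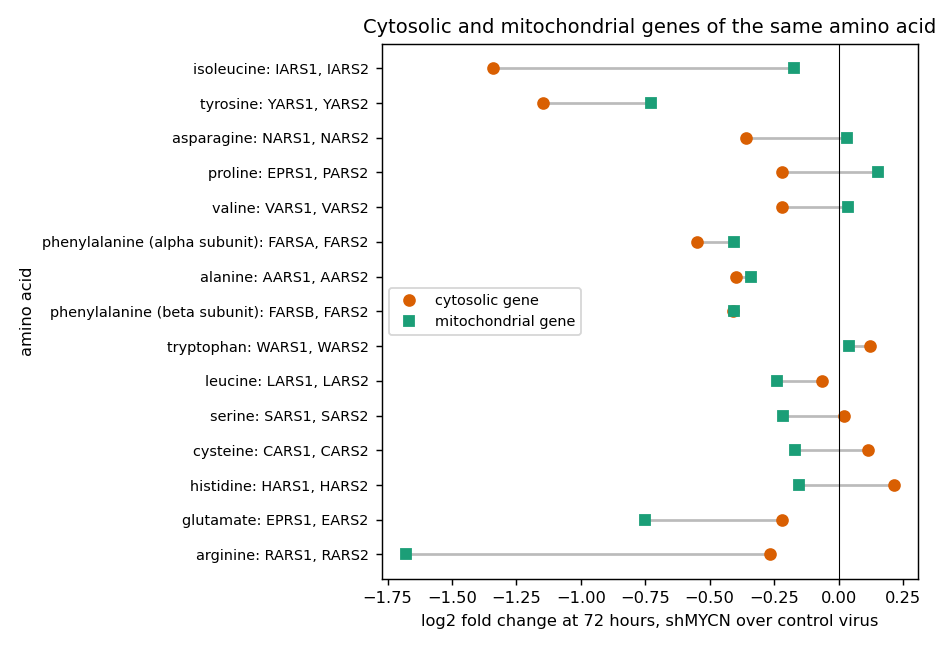
Log2 fold change at 72 h, shMYCN over control virus, of the cytosolic gene (circle) and mitochondrial gene (square) of each amino acid, joined by a line. Isoleucine, with IARS1 at -1.34 and IARS2 at -0.17, and arginine, with RARS1 at -0.26 and RARS2 at -1.68, lie at opposite ends.

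The promoters of the members were searched for CACGTG and for TGATGNAA on both strands. CACGTG was in 4 of 32 members (12.5 percent: IARS1, EARS2, CARS2 and MARS2), beside 7.43 percent of 27305 promoters of the same length. Of the members with CACGTG, IARS1 and EARS2 fell, and CARS2 and MARS2 did not pass. TGATGNAA was in 7 of 32 (21.9 percent), beside 3.67 percent of all promoters. These were the cytosolic AARS1, CARS1, IARS1, MARS1, NARS1 and TARS1, which are 6 of 16 cytosolic promoters, and the mitochondrial YARS2, 1 of 14. Of these, AARS1, IARS1, NARS1 and YARS2 fell, CARS1 and TARS1 did not pass, and MARS1 was not analysed here. Windows of AARS1 (chr16:70289666-70289713, minus strand), YARS2 (chr12:32756067-32756114, minus strand) and MARS2 (chr2:197705338-197705368, plus strand) show the matches in genes of both classes, with the motif in capitals.

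AARS1 ATF4-type motif: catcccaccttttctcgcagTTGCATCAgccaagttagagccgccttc

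YARS2 ATF4-type motif: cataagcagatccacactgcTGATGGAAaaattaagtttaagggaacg

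MARS2 E-box: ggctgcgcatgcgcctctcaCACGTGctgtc

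A match is a description of the letters, not a site of binding. AARS1 fell by 0.26 and YARS2 by 0.34 on the log2 scale. Of the genes with CACGTG, MARS2, the mitochondrial methionyl enzyme, gave -0.06, CARS2 gave -0.08, and EARS2 and IARS1 fell by 0.36 and 0.80.

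Genes of the amino acid response were counted beside the 15.8 percent lower and 22.2 percent higher of all genes tested. Among cytosolic synthetases described elsewhere as ATF4 targets, 5 of 10 tested fell and none rose, with a median of -0.18. Of the other 7 cytosolic synthetases, 3 fell and 1 rose, with a median of -0.20. In the amino acid response list, 6 of 28 genes were lower and 3 higher, with a median of -0.01, which is near those shares for lower genes and below them for higher genes. Its lowest p-values were for PYCR1, an enzyme of proline synthesis (-0.70), PHGDH, the entry enzyme of serine synthesis (-0.76), and CEBPB, a transcription factor (-0.60). In the GCN2 pathway, which senses uncharged tRNA, 4 of 11 were lower and 1 higher, led by EIF2B3 (-0.47) and EIF2B5 (-0.31), subunits of the exchange factor eIF2B, and by IMPACT, an inhibitor of GCN2, which was higher (0.37).

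Other genes of tRNA charging and handling were counted against the same shares of all genes, 15.8 percent lower and 22.2 percent higher. Of 9 other charging factors tested, 2 were lower and 2 higher, with a median of 0.14, which is near those shares. MTFMT, which formylates the mitochondrial initiator methionyl-tRNA, fell by 0.93 on the log2 scale, TARS3, a threonyl-tRNA synthetase paralogue, fell by 0.56, and GATC, a subunit of the mitochondrial glutamyl-tRNA amidotransferase, gave 0.37 and rose. Of 31 genes of tRNA maturation and export, 12 were lower and 2 higher, led by the tRNA methyltransferases TRMT5 (-0.81) and NSUN2 (-0.71) and the RNase P subunit RPP30 (-0.57). Of 8 translation elongation factors 1 was lower, EIF5A (-0.32), also near the share of all genes.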

How the data were processed

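RNA of IMR32 cells was measured on 11 one-colour Affymetrix arrays. The authors deposited a linear signal intensity per probe set, made with MAS5 and GCOS per the submitters' processing notes (versions not given in the sources used here). On each array the middle 96 percent of signals had a mean of 100.01. The array's genome build is not given in the sources used here.

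Of 54675 probe sets, 41091 had 1 gene symbol, 1801 several and 11721 none, and 62 were controls; symbols of 41037 were updated by Entrez number with the RefSeq table of GRCh38.p14. Each gene was read by its brightest probe set, and of 19775 genes the dimmest 40 percent (mean signal below 14.8) were dropped, leaving 11865. Group means of log2(signal + 16) of 7 groups came from 1 limma fit to the 11 arrays (limma 3.58.1, R 4.3.3; eBayes with trend, 4 residual and 7.35 prior degrees of freedom). Tests were two-sided, adjusted by Benjamini-Hochberg over the genes tested, at a threshold of 0.05. Folds of dim genes are understated by the offset, and the number of arrays limits the precision. Probe sets other than the brightest were tested in a fit of all probe sets with 1 symbol. The procedure was checked on simulated data.

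All 37 members were to be named. Signals on every array were given for the 5 cytosolic and 4 mitochondrial genes with the smallest p in the mean over 3 times, the largest difference the other way in each class, AIMP1 and the pair HARS1 and HARS2; other lists gave up to 3 genes with the smallest p. Members, lists and rules were chosen with earlier results of these data known. Alternatives were offsets of 1 and 64, quantile and median scaling, no filter, a filter at 60 percent, the mean of all probe sets, no variance trend, an additive model, a replicate block, each array left out, and the 5 control and no virus arrays as 1 group.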

Additional observations from a re-analysis of the deposited data

Results flagged for a closer look

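The interaction test called 4 members, which differed more from control virus at 72 h than at 24 h. The 72 h difference minus the 24 h difference, on the log2 scale, was -1.13 for IARS1, -1.13 for RARS2, -0.81 for YARS1 and -0.58 for KARS1, with limma adjusted p-values of 0.00219, 0.00199, 0.015 and 0.0473. RARS2 already gave -0.55 at 24 h and -1.54 at 48 h, whereas IARS1 gave -0.21 at 24 h and -0.86 at 48 h. Each hour has 1 control virus array, so the interaction rests on 2 such arrays.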

How the results depend on the processing

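RARS2, IARS1 and YARS1 were called in all 22 alternatives of the averaged comparison and all 20 at 72 h. Of 1378 alternative values of single members, 1276 stayed on the same side of the threshold (34 of them with the other sign, called in neither setting), 57 lost a call, 45 gained 1 and 0 reversed a call. Without the 72 h control virus array the members called in the average were 3, and leaving out each array in turn gave 3 to 16. The other ranges over arrays left out were 0 to 1 at 24 h (1 without shMYCN 48 h A or B), 3 to 9 at 48 h (9 without shMYCN 48 h B), 7 to 17 at 72 h (17 without shMYCN 48 h B, 7 without shMYCN 72 h B), 2 to 6 for the interaction (2 without shMYCN 24 h B) and 6 to 19 for 72 h against 24 h within shMYCN (19 without shMYCN 48 h A or B, 6 without shMYCN 24 h B). At 24 h the count was 1 with offset 64, 1 with median scaling and 1 with the dimmest 60 percent left out. With the 5 control and no virus arrays as 1 group it was 2 at 24 h, 12 at 48 h and 20 at 72 h. The shares of all genes at 24 h in these fits are not given here. These 24 h counts are therefore not a result about the members. No filter gave 7 members at 72 h, where 1586 of 19775 genes were lower and 1757 higher. With the filter, 1868 of 11865 genes were lower and 2166 higher. The cytosolic median of the average was -0.14 with the mean of all probe sets and -0.25 to -0.12 over arrays left out; the mitochondrial one was -0.13 with median scaling, -0.13 with the dimmest 60 percent left out and -0.150 to -0.0506 over arrays left out. At 72 h the cytosolic median was -0.21 with quantile scaling, -0.39 with median scaling and -0.33 to -0.26 over arrays left out; the mitochondrial one was -0.30 with median scaling, -0.24 with the dimmest 60 percent left out and -0.20 to -0.16 over arrays left out. Cytosolic minus mitochondrial was 0.037 at 72 h with the dimmest 60 percent left out, and over arrays left out -0.04 to 0.02 at 72 h, -0.01 to 0.05 at 48 h and 0.0092 to 0.129 at 24 h. Median scaling moved the 72 h median of all genes by -0.11 and gave 2506 lower and 1456 higher genes, against 1868 and 2166. Arrays with the same letter deviated together weakly (r = -0.05, 0.04 and 0.10). This shows no large effect shared by a letter, and it cannot show whether A and B are separate cultures. With the letter as a replicate block, 14 members were called in the average, 0 at 24 h, 4 at 48 h and 13 at 72 h. Of all genes, that fit called 2005 lower and 2758 higher in the average, and 1952 lower and 2257 higher at 72 h. Without the block, 1871 were lower and 2629 higher in the average, and 1868 lower and 2166 higher at 72 h. The shares of all genes at 24 and 48 h with the block are not given here. Without the 72 h control virus array, 776 of all genes were lower and 1162 higher in the average, against 1871 and 2629 with all arrays. For most other arrays left out, the share of all genes is not given beside the member counts. Those ranges are therefore not a result about the members. The cause of these shifts was not tested. The 48 h pair was the least alike (SD of the log2 difference 0.271, against 0.172 to 0.186 in the other pairs).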
